A study of Homo sapiens with 12 samples.

Results

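The genes described here are the planar cell polarity genes of the PRICKLE, VANGL and CELSR families, the receptors ROR1 and ROR2, and the ligand WNT5A. These 10 genes were taken by symbol from a count table of 58735 genes. They were chosen with a measured value in view, because PRICKLE1 had a large difference between its response to suspension with and without GFI1, so every value of PRICKLE1, and that difference for all 10 genes, is given below as a description with no test. The cells were A549, an established line of human lung adenocarcinoma, a non-small cell lung cancer. GFI1 is a zinc finger transcription factor that acts mainly as a repressor. It was introduced by lentivirus from a cDNA under the human PGK promoter, in a vector that also carries GFP through an internal ribosome entry site, and cells were sorted for GFP. The 4 groups of 3 libraries were control attached cells, GFI1-expressing attached cells, control floating cells and GFI1-expressing floating cells. Attached cells grew on culture-treated plates, and floating cells were kept in forced suspension on ultra-low attachment plates for 48 hours. The labels do not say whether control cells carried an empty vector, and nothing says that the 3 libraries of a group came from separate cultures, so p-values measure only the spread between these libraries, which may be technical. Polyadenylated RNA was sequenced.

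Planar cell polarity is the alignment of cells within the plane of a tissue. In the core pathway, CELSR proteins are large adhesion receptors that bridge neighbouring cells through their cadherin repeats. VANGL proteins are multi-pass membrane proteins that recruit the cytoplasmic LIM-domain proteins PRICKLE1 and PRICKLE2 to one side of the cell, while Frizzled receptors and Dishevelled gather on the other. WNT5A is a secreted ligand that acts largely without beta-catenin. ROR1 and ROR2 are receptor tyrosine kinase-like proteins that bind it, and the signal runs through Dishevelled, small GTPases and JUN kinases to the cytoskeleton. The same genes are known in carcinoma cells for roles in migration.

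Because GFI1 binds DNA through an AATC core, the bases upstream of transcription start are shown for the 4 genes whose levels differed most between groups, PRICKLE1, PRICKLE2, ROR1 and WNT5A. These 4 were picked after their values were seen. The sequences are RefSeq promoter windows on GRCh38.p14, cut to the 250 bases before the start, with annotated exon bases left out. They read 5′ to 3′ on the gene's strand, and capitals mark AATC or its reverse complement GATT. Windows were found for 9 of the 10 genes, 12 in all. Those of WNT5A, PRICKLE1 and PRICKLE2 precede starts inside the gene spans given below, not at the outer 5′ ends. Of the 250 bases before the PRICKLE1 start, 165 lie in exons of PRICKLE1 itself. WNT5A is on the minus strand, with 2 windows, chr3:55481399-55481648 and chr3:55487399-55487556, and both held AATC.
WNT5A, start 1: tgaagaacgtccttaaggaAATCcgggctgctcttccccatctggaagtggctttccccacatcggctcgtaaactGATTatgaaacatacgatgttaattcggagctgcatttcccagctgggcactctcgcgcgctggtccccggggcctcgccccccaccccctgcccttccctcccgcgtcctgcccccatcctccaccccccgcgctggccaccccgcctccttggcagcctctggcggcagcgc
WNT5A, start 2: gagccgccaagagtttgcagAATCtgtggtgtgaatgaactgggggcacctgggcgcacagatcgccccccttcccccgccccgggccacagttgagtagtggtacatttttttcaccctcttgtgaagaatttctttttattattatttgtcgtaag
ROR1 is on the plus strand, and its window, chr1:63773767-63774016, held no AATC.
ROR1: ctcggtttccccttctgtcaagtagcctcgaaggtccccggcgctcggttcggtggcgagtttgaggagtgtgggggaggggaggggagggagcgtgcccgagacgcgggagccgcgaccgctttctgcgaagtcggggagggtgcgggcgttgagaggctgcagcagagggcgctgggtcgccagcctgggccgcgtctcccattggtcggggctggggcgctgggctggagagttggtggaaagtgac
PRICKLE1 is on the minus strand, and the part of its window outside exons, chr12:42483673-42483757, held no AATC either.
PRICKLE1: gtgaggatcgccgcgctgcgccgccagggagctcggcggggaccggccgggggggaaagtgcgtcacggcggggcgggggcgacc
PRICKLE2 is on the minus strand, and each of its windows, chr3:64225467-64225716 and chr3:64268175-64268423, held 4.
PRICKLE2, start 1: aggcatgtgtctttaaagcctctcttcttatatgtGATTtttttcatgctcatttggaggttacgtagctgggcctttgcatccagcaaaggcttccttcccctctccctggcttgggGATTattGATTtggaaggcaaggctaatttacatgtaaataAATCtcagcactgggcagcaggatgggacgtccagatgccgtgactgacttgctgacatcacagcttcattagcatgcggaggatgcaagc
PRICKLE2, start 2: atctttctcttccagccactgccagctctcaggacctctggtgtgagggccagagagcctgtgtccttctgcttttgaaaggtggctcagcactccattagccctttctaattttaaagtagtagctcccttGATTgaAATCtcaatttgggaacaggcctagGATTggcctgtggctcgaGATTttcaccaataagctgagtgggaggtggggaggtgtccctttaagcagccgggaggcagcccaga
Of the 12 windows, 6 held AATC on either strand, overlapping matches included, against 64.79% of all 35116 windows of this length. The longer motif AATCACNGC was in none of the 12 and in 0.9056% of all windows. A match is only a description of letters, and its absence says nothing about binding elsewhere.

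Libraries held 17014188 to 20748677 counted reads. Floating GFI1 libraries differed from each other more than the others did, with a chi-square per gene between 2 libraries of 4.83 to 11.8, highest between replicates 2 and 3, against 2.01 to 3.75 within the other 3 groups, where counting noise alone gives about 1. For the planar cell polarity genes, receptors and ligand described here, tested results that change without a single library are given so below. For other genes named below, no fold change or p-value was recomputed without single libraries. GFI1 itself had 4 to 12 counts in the 6 control libraries. It had 290, 294 and 286 CPM (read counts scaled to the library total after TMM adjustment) in attached GFI1 cells and 545, 706 and 430 CPM in floating GFI1 cells, so no library went against its GFI1 label, and GFI1 rose in suspension in the cells that carried it (log2 fold change 0.95 ± 0.09 (SE), adjusted p = 2.38e-08, edgeR quasi-likelihood test). Of 5 markers of simple lung epithelium, KRT8 and KRT18 made up most of a summed level of 8307 to 8822 CPM in attached control, 2478 to 2564 in attached GFI1, 5296 to 5660 in floating control and 1894 to 2196 in floating GFI1 cells. KRT19 and EPCAM were near absent, with group means of 1.11 to 2.80 and 0.596 to 2.25 CPM. CDH1, the epithelial cadherin, had 120 ± 2.24 CPM (SD, n = 3) in attached control, 6.45 ± 0.67 in attached GFI1, 85.4 ± 3.54 in floating control and 3.99 ± 0.31 in floating GFI1 cells. The 4 alveolar type 2 markers summed to 0.489 to 2.81 CPM. Of 4 leukocyte markers, 3 had at most 3 counts in every library, and so had 3 of 4 fibroblast markers, COL1A1 being the exception. The 3 endothelial markers summed to 0.109 to 0.602 CPM in control libraries and 3.55 to 5.52 CPM in GFI1 libraries, mostly CDH5. The part of these marker differences in the results below was not tested. The values are from bulk RNA, in which fewer cells of a type and less RNA per cell cannot be told apart.

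Per kilobase of gene length, CELSR1 stood highest of the 10 genes in all 4 groups, at 28.4 ± 1.29 CPM per kb (SD, n = 3) in attached control cells. There, 91.1% of the 17829 genes tested had a lower level than CELSR1. CELSR2 followed at 9.61 ± 1.02, VANGL1 at 6.72 ± 0.37 and CELSR3 at 5.38 ± 0.27 CPM per kb. PRICKLE2 at 2.67 ± 0.11 and ROR1 at 2.60 ± 0.10 overlapped each other, as did PRICKLE1 at 0.674 ± 0.053 and VANGL2 at 0.555 ± 0.10. WNT5A stood far lower at 0.0592 ± 0.013 CPM per kb, with 2.1% of tested genes below it, and ROR2 was lowest. The A549 cells thus carried abundant CELSR1 message and little of the ligand or of ROR2. In both GFI1 groups CELSR3 stood above VANGL1 without overlap, whereas ROR1 stood above PRICKLE2 without overlap in these groups and in floating control cells. In floating GFI1 cells WNT5A, at 0.308 ± 0.076 CPM per kb, overlapped PRICKLE2 at 0.418 ± 0.032 and lay above VANGL2 at 0.206 ± 0.011, whereas PRICKLE1, at 0.168 ± 0.044, overlapped VANGL2.

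**Figure D1:**
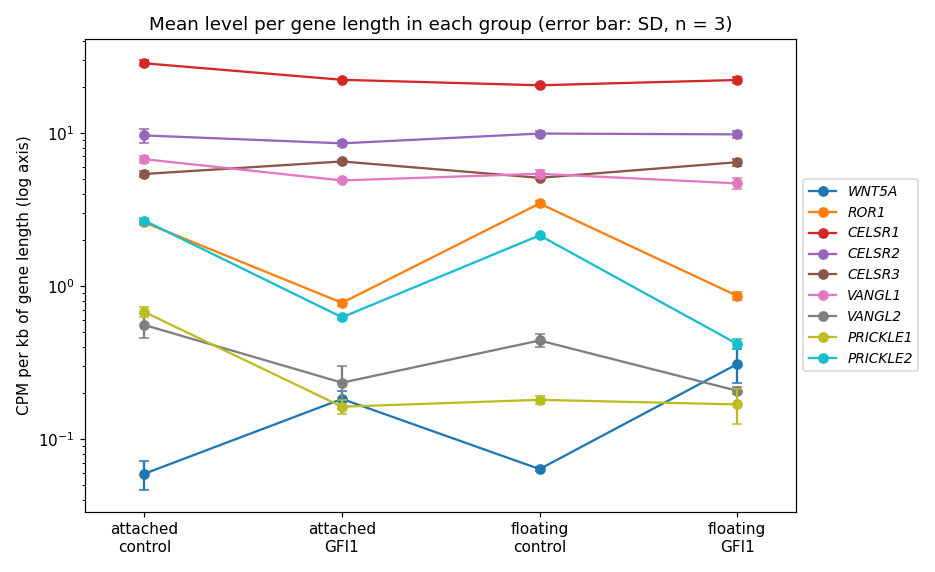
Mean level of 9 genes in CPM per kb of gene length (log axis) in the 4 groups, with SD over 3 libraries as error bars, ROR2 being too low to show. CELSR1 stays highest throughout, ROR1 and PRICKLE2 drop in both GFI1 groups while WNT5A climbs, and PRICKLE1 is high in attached control cells alone.

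The comparisons ask how GFI1 changed these genes in attached and in floating cells, and how suspension changed them without and with GFI1. All were made in 1 edgeR fit over the 12 libraries, with a threshold of adjusted p of 0.05 or less over 17829 genes. Of the 9 genes other than PRICKLE1, 8 could be tested and ROR2 was too low. Many genes differed with GFI1, and 62.3% of all tested genes passed in attached cells (29.5% higher and 32.8% lower). All 8 tested genes passed there, 2 higher and 6 lower, with a median log2 fold change of -0.41 against -0.01 over all genes. In floating cells 7 of 8 passed, 3 higher and 4 lower, where 60.4% of all genes passed (29.3% higher and 31.1% lower). Their median was -0.11 against 0.01 over all genes. With suspension, 4 of 8 passed in control cells, 1 higher and 3 lower, against 40.1% of all genes (19.6% higher and 20.5% lower). In GFI1 cells 3 of 8 passed, 2 higher and 1 lower, against 31.3% (15% higher and 16.3% lower). Scaled by library total alone, 61.5% instead of 47.4% of the genes that passed with GFI1 in attached cells were higher, and 61.4% instead of 48.5% in floating cells. With backgrounds this large, the size of each change and the values per library carry more than the counts.

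**Figure D2:**
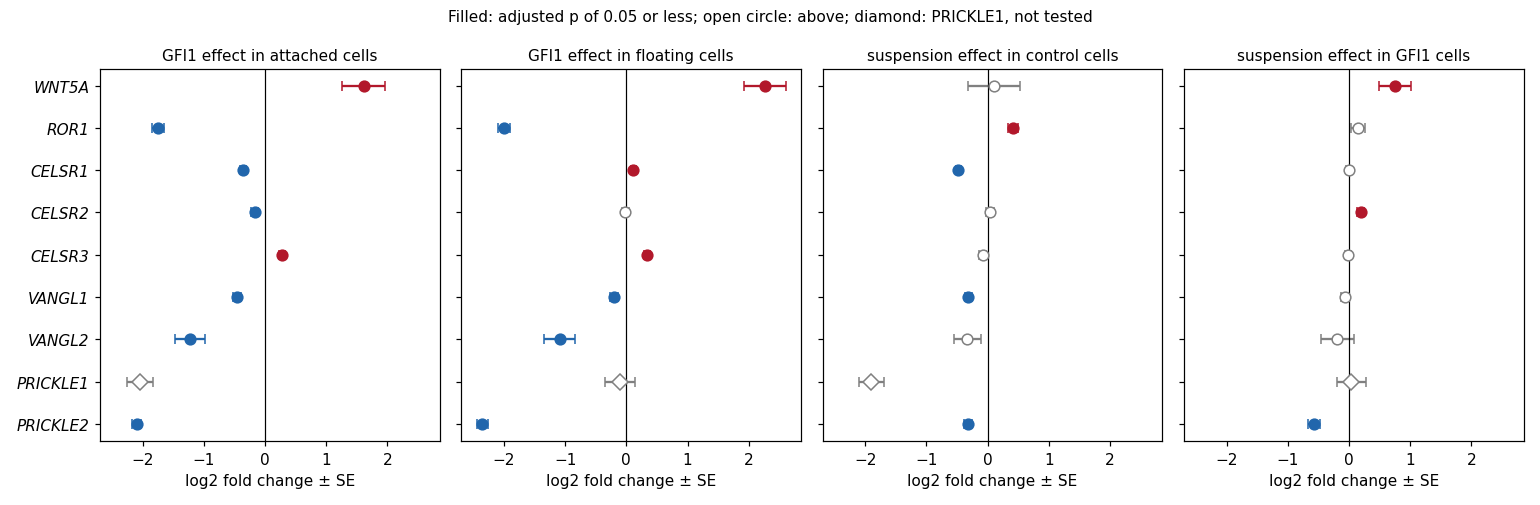
Log2 fold changes with SE for the 8 tested genes and PRICKLE1 in the 4 comparisons. Filled points passed an adjusted p of 0.05, red higher and blue lower, and PRICKLE1 is drawn as an untested diamond. PRICKLE2 and ROR1 lie between -1.75 and -2.35 in both GFI1 comparisons and WNT5A at 1.61 and 2.26.

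WNT5A (ENSG00000114251, chr3:55465715-55490539, hg38, minus strand), the ligand, was higher in GFI1 cells whether attached or floating. It had 9, 8 and 6 reads in attached control and 8, 8 and 8 in floating control libraries, or 0.536, 0.434 and 0.344 CPM and 0.474, 0.482 and 0.453 CPM. Attached GFI1 libraries had 1.30, 1.20 and 1.55 CPM, and floating GFI1 libraries 1.88, 2.92 and 2.04 CPM. Every GFI1 library lay above every control library, and the floating GFI1 libraries above the attached ones. The attached cells gave a 3.05-fold increase with GFI1 (1.61 ± 0.36 on the log2 scale, adjusted p = 0.000178). The increase was 4.79-fold when cells were floating (2.26 ± 0.34, adjusted p = 7.03e-07). Only 1.95% of tested genes rose further in the floating comparison. With suspension, control cells differed by 0.10 ± 0.42 (adjusted p = 0.876). GFI1 cells rose by 0.75 ± 0.25 (adjusted p = 0.0247), but DESeq2 did not call this (adjusted p = 0.0779), nor did the fit without attached GFI1 replicate 1 (0.0657) or 2 (0.0909) or floating GFI1 replicate 2 (0.214). That last library, with the most WNT5A, also had the most GFI1 of all 12, and whether WNT5A follows the amount of GFI1 was not tested. WNT5A remained a low message in every group, with at most 53 reads. Its antisense transcript WNT5A-AS1 had at most 8.

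ROR1 (ENSG00000185483, chr1:63774022-64181498, plus strand), the more abundant of the ROR receptors here, was lower with GFI1 by 3.36-fold attached and 4.01-fold floating. Levels were 17.0, 18.2 and 17.0 CPM in attached control and 5.41, 4.98 and 5.21 CPM in attached GFI1 libraries. They were 22.8, 24.2 and 22.6 CPM in floating control and 5.96, 5.40 and 5.97 CPM in floating GFI1 libraries. Control and GFI1 libraries were far apart in both states. The log2 fold changes were -1.75 ± 0.10 (adjusted p = 1.91e-14) and -2.00 ± 0.10 (adjusted p = 5.53e-16). ROR1 rose with suspension in control cells by 0.41 ± 0.08 (adjusted p = 0.000154), and was the only one of the 8 to do so. In GFI1 cells the value was 0.16 ± 0.11 (adjusted p = 0.317), and attached and floating libraries touched. WNT5A and ROR1 thus moved in opposite directions with GFI1. FZD2, another receptor known to bind WNT5A, rose with GFI1 in both states, as given below.

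ROR2 (ENSG00000169071, chr9:91563091-91950162, minus strand), the other WNT5A receptor of the family, was close to absent. It had 1, 1 and 0 reads in attached control, 2, 1 and 0 in floating control, 1, 5 and 8 in attached GFI1 and 9, 2 and 0 in floating GFI1 libraries. Both control groups were at or under the floor of 3 counts per library, the GFI1 groups overlapped them, and no fold is given.

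CELSR1 (ENSG00000075275, chr22:46360834-46537170, minus strand), the most abundant of the CELSR cadherins here, was highest in attached control cells. Its levels were 345, 375 and 373 CPM there, 283, 284 and 286 CPM in attached GFI1, 268, 260 and 257 CPM in floating control and 277, 298 and 275 CPM in floating GFI1 libraries. The attached control libraries stood above all others, and the floating control libraries below all others. CELSR1 fell with GFI1 in attached cells (-0.36 ± 0.04, adjusted p = 9e-08). In floating cells the sign was the opposite (0.11 ± 0.04, adjusted p = 0.0267), a change of 1.08-fold that was lost without a low-count filter (adjusted p = 0.0532) and without floating control replicate 2 (0.0743) or 3 (0.0967) or floating GFI1 replicate 2 (0.126). With suspension CELSR1 fell by 0.48 ± 0.04 on the log2 scale in control cells (adjusted p = 2.41e-09). In GFI1 cells the difference was -0.00398 ± 0.04 (adjusted p = 0.961).

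CELSR2 (ENSG00000143126, chr1:109250019-109275750, plus strand), of the same family, had no log2 fold change above 0.19 in size. Its levels were 104, 127 and 125 CPM in attached control, 104, 110 and 103 CPM in attached GFI1, 120, 119 and 127 CPM in floating control and 120, 114 and 128 CPM in floating GFI1 libraries. Attached control and attached GFI1 libraries overlapped. The GFI1 difference in attached cells, -0.17 ± 0.06 (adjusted p = 0.0148), did not pass when libraries were scaled by upper quartile (adjusted p = 0.091) or by total alone (0.743), nor without attached control replicate 2 (0.111) or 3 (0.0808) or attached GFI1 replicate 1 (0.0544) or 3 (0.0688). In floating cells it was -0.02 ± 0.06 (adjusted p = 0.816). Suspension gave 0.04 ± 0.06 in control cells (adjusted p = 0.637) and a rise of 0.19 ± 0.06 in GFI1 cells (adjusted p = 0.0134). That rise was not called without attached GFI1 replicate 1 (adjusted p = 0.0519) or 3 (0.0667), or floating GFI1 replicate 1 (0.0508) or 3 (0.0595).

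CELSR3 (ENSG00000008300, chr3:48636469-48662915, minus strand) was higher with GFI1 in both states. It had 70.3, 77.2 and 76.4 CPM in attached control and 87.8, 92.3 and 90.4 CPM in attached GFI1 libraries. Floating control libraries had 70.4, 71.4 and 69.6 CPM and floating GFI1 libraries 93.5, 89.1 and 84.8 CPM. GFI1 and control libraries did not overlap. The rises were 0.27 ± 0.05 (adjusted p = 2.31e-05) and 0.34 ± 0.05 (adjusted p = 1.27e-06). The suspension values, -0.08 ± 0.05 and -0.02 ± 0.05, did not pass (adjusted p = 0.187 and 0.828). The 3 CELSR genes thus did not move as a family.

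VANGL1 (ENSG00000173218, chr1:115641953-115698224, plus strand), the more abundant VANGL gene, was highest in attached control cells. Its levels were 57.6, 60.7 and 64.3 CPM there, 45.1, 44.1 and 43.5 CPM in attached GFI1, 51.9, 48.5 and 46.3 CPM in floating control and 41.7, 39.0 and 46.3 CPM in floating GFI1 libraries. The attached groups were well apart, while the lowest floating control and the highest floating GFI1 library nearly met. VANGL1 fell with GFI1 in attached cells by 0.46 ± 0.06 on the log2 scale (adjusted p = 3.31e-07). It fell less in floating cells, by 0.21 ± 0.06 (adjusted p = 0.00604), and this was not called with library size alone (adjusted p = 0.302) or without floating GFI1 replicate 2 (0.0634). Suspension lowered it in control cells (-0.32 ± 0.06, adjusted p = 0.000147), while GFI1 cells gave -0.06 ± 0.06 (adjusted p = 0.499).

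VANGL2 (ENSG00000162738, chr1:160400586-160428678, plus strand) was a low message that was lower with GFI1. It had 58, 44 and 53 reads in attached control, 44, 36 and 40 in floating control, 15, 30 and 30 in attached GFI1 and 21, 20 and 21 in floating GFI1 libraries. No GFI1 library reached the lowest control library. With GFI1 the attached cells had 2.34-fold less (-1.23 ± 0.24, adjusted p = 6.56e-05). The floating cells had 2.13-fold less (-1.09 ± 0.26, adjusted p = 0.000568). The suspension values were -0.33 ± 0.22 in control and -0.19 ± 0.27 in GFI1 cells (adjusted p = 0.248 and 0.65).

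PRICKLE1 (ENSG00000139174, chr12:42456757-42590355, minus strand), a cytoplasmic partner of VANGL, was high in attached control cells alone. It had 94, 110 and 89 reads there, or 5.60, 5.97 and 5.11 CPM. The other 9 libraries had 19 to 32 reads, with 1.18, 1.43 and 1.40 CPM in attached GFI1, 1.42, 1.44 and 1.59 CPM in floating control and 1.05, 1.76 and 1.34 CPM in floating GFI1 libraries. Those 3 groups overlapped one another and lay far below the attached control. GFI1 in attached cells and suspension in control cells therefore went with decreases of like size, 4.12-fold (-2.04 ± 0.21) and 3.73-fold (-1.90 ± 0.21). With both together there was no further decrease, since floating GFI1 cells differed from floating control cells by -0.10 ± 0.24 and from attached GFI1 cells by 0.04 ± 0.24. The difference between the suspension changes with and without GFI1, which chose the gene, was 1.94 ± 0.32. PPHLN1, on the opposite strand, shares 438 exon bases with the last exon of PRICKLE1 (chr12:42459278-42459715), which is 5.33% of PRICKLE1's exon bases. It is far more abundant, with 1147 to 1697 reads, and without stated strand counting its reads there cannot be told apart from those of PRICKLE1. PPHLN1 had 76.2 ± 2.19 CPM (SD, n = 3) in attached control and 75.2 ± 2.78 in attached GFI1 cells. It had 72.3 ± 3.73 CPM in floating control and 66.4 ± 2.02 in floating GFI1 cells. Counted over its whole length, it did not have the pattern of PRICKLE1. The part of its reads in the PRICKLE1 values was not tested.

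PRICKLE2 (ENSG00000163637, chr3:64092242-64445476, minus strand), the more abundant PRICKLE gene, was lower with GFI1 in both states, unlike PRICKLE1. Levels were 40.4, 37.4 and 40.2 CPM in attached control and 9.30, 8.82 and 9.46 CPM in attached GFI1 libraries. They were 31.2, 31.8 and 31.5 CPM in floating control and 5.68, 6.18 and 6.62 CPM in floating GFI1 libraries. All 4 groups were apart from each other. With GFI1 the attached cells had 4.28-fold less (-2.10 ± 0.08, adjusted p = 2.77e-18). For the floating cells the decrease was 5.10-fold (-2.35 ± 0.09, adjusted p = 1.84e-18). Suspension lowered PRICKLE2 without GFI1 (-0.32 ± 0.06, adjusted p = 0.000269) and with it (-0.57 ± 0.10, adjusted p = 3.26e-05). It was the only one of the 8 tested genes to pass in all 4 comparisons with 1 direction. Transcripts of PRICKLE2-AS1 cross 22.8% of its exon bases and had at most 8 reads in any library. Without stated strand counting, reads from the shared bases cannot be told apart, so this count does not bound the antisense level.

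**Figure D3:**
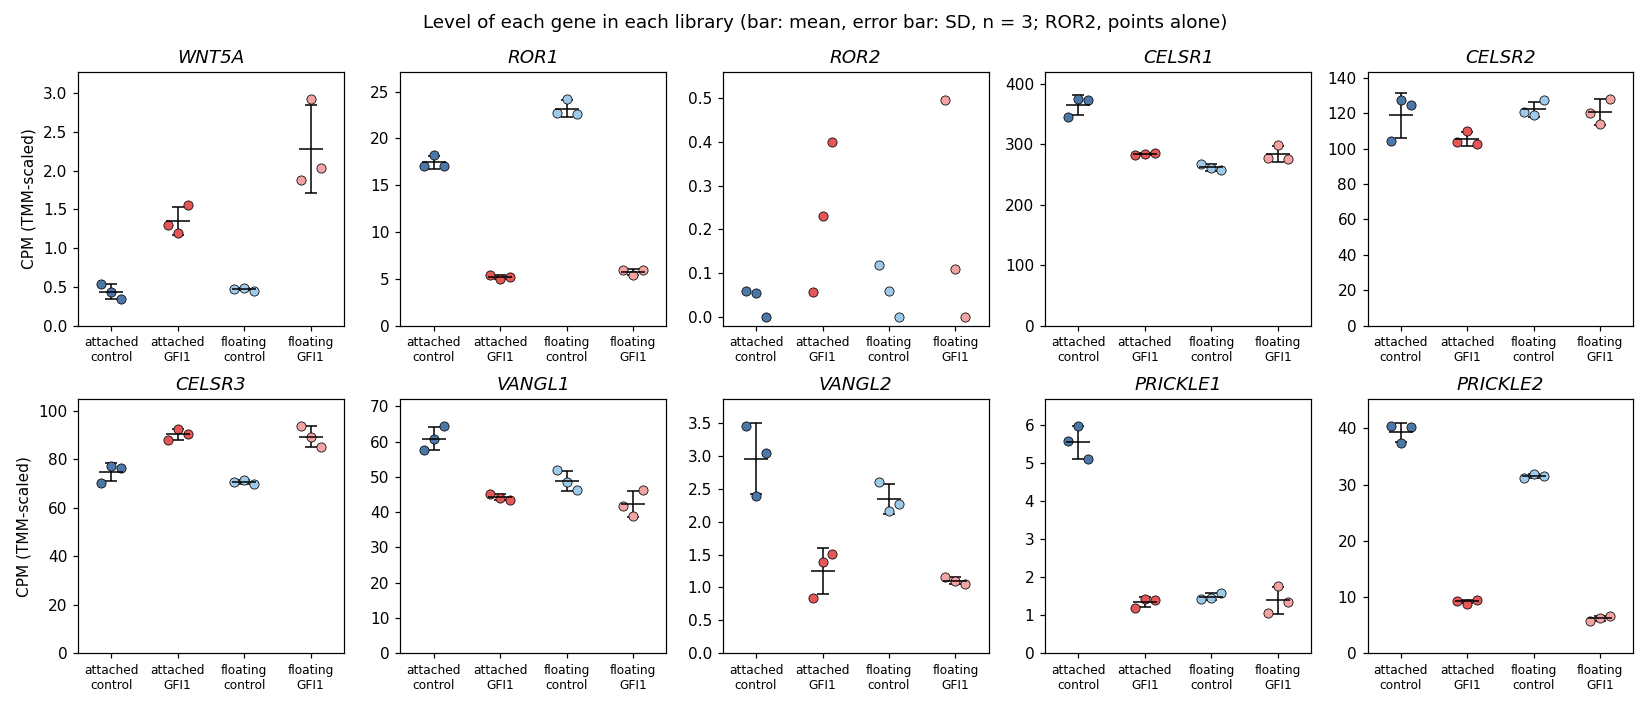
Level of each of the 10 genes in each library in TMM-scaled CPM, with 3 libraries a group and bars for the mean and SD (for ROR2, points alone). PRICKLE1 is at 5.11 to 5.97 CPM in attached control libraries and at 1.05 to 1.76 CPM in the other 9, whereas PRICKLE2 and ROR1 separate by GFI1 in both states.

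For the genes other than PRICKLE1, the difference between the suspension changes with and without GFI1 is given without a test. It was 0.65 ± 0.49 for WNT5A, 0.47 ± 0.06 for CELSR1, 0.25 ± 0.09 for VANGL1, 0.15 ± 0.08 for CELSR2, 0.14 ± 0.35 for VANGL2 and 0.07 ± 0.07 for CELSR3. ROR1 and PRICKLE2 both had -0.25, with SE of 0.14 and 0.12. Like PRICKLE1, the genes CELSR1, VANGL1, VANGL2 and PRICKLE2 had their highest mean level in attached control cells.

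A wider list of 56 genes of the pathway put these values in context, and 49 of them could be tested. The list was chosen by role, but with earlier results of these data known. With GFI1, 36 of 49 passed in attached cells, 16 higher and 20 lower, and 36 in floating cells, 17 higher and 19 lower. With suspension, 20 passed in control cells, 4 higher and 16 lower, and 17 in GFI1 cells, 7 higher and 10 lower. These shares, 73.5%, 73.5%, 40.8% and 34.7%, are to be read against the backgrounds of 62.3%, 60.4%, 40.1% and 31.3%.

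Among the other core genes, the Dishevelled genes DVL1 and DVL2, which carry the signal from Frizzled into the cell, rose with GFI1 by 0.34 ± 0.05 and 0.15 ± 0.05 in attached cells (adjusted p = 1.02e-06 and 0.0178). They rose by 0.39 ± 0.05 and 0.32 ± 0.05 in floating cells (adjusted p = 1.33e-07 and 9.38e-06). The core receptor FZD6 fell by 0.33 ± 0.05 and 0.26 ± 0.05 (adjusted p = 2.55e-06 and 6.41e-05). FZD3 fell in attached cells (-0.27 ± 0.08, adjusted p = 0.00392) and gave -0.11 ± 0.08 in floating cells (adjusted p = 0.222), and the difference between these, 0.16 ± 0.11, did not pass (adjusted p = 0.412). PRICKLE3, DVL3 and ANKRD6 did not pass in either GFI1 comparison, with values from -0.13 to 0.31, and PRICKLE4 was too low, with at most 6 reads. With suspension in control cells the 7 tested core genes had log2 fold changes from -0.32 to 0.14 and adjusted p-values from 0.146 to 0.462. In GFI1 cells FZD3 and FZD6 rose by 0.29 ± 0.08 and 0.16 ± 0.05 (adjusted p = 0.00536 and 0.0138).

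Among ligands and their handling, WNT4 had the largest increase of the list in attached cells. It had 1.28 ± 0.28 CPM in attached control, 17.2 ± 0.54 in attached GFI1, 3.62 ± 0.21 in floating control and 22.3 ± 2.47 in floating GFI1 cells (SD, n = 3). GFI1 raised it by 3.73 ± 0.19 attached (adjusted p = 1.88e-17) and by 2.62 ± 0.13 floating (adjusted p = 3.3e-16). Suspension raised it by 1.48 ± 0.21 in control and 0.38 ± 0.09 in GFI1 cells (adjusted p = 5.67e-07 and 0.00214), and the 2 suspension changes differed by -1.10 ± 0.23 (adjusted p = 0.000841). WLS, the carrier that takes Wnt proteins to the cell surface, fell with GFI1 from 38.9 ± 0.77 to 5.28 ± 0.19 CPM in attached and from 33.0 ± 3.04 to 4.56 ± 0.88 CPM in floating cells (-2.88 ± 0.10 and -2.84 ± 0.11, adjusted p = 1.21e-18 and 4.28e-18). SFRP1, a secreted Wnt binder, rose from 47.1 ± 0.50 to 339 ± 9.02 CPM and from 34.5 ± 0.97 to 298 ± 30.8 CPM (2.85 ± 0.06 and 3.11 ± 0.06, adjusted p = 4.17e-23 and 1.39e-23). Thus WNT5A and WNT4 messages were higher with GFI1 while that of WLS was lower and that of SFRP1 higher. Other genes of these classes did not all move likewise. SFRP4 was lower in attached cells (-0.61 ± 0.24, adjusted p = 0.0297) and SFRP5 in floating cells (-1.17 ± 0.53, adjusted p = 0.0494, with overlapping libraries). PORCN, also of Wnt secretion, was higher in floating cells (0.32 ± 0.11, adjusted p = 0.0158). WNT11 was higher in attached cells (1.19 ± 0.42, adjusted p = 0.0123), and WNT5B passed in neither state.

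Receptors moved in both directions. FZD4 fell with GFI1 from 6.17 ± 0.43 to 0.781 ± 0.22 CPM in attached and from 7.51 ± 0.81 to 0.962 ± 0.37 CPM in floating cells (-2.98 ± 0.25 and -2.96 ± 0.24, adjusted p = 1.32e-11 and 5.83e-12). FZD2, a Frizzled known to bind WNT5A, rose with GFI1 by 0.59 ± 0.05 and 0.82 ± 0.06 (adjusted p = 3.05e-10 and 9.91e-12) and fell with suspension in both (-1.22 ± 0.06 and -0.98 ± 0.05, adjusted p = 2.55e-14 and 3.99e-13). PTK7, a co-receptor of planar polarity, had 9.69 ± 1.74 CPM in attached control and 5.19 ± 0.85 CPM in floating control cells, a fall of 0.90 ± 0.14 on the log2 scale (adjusted p = 8.94e-06). In GFI1 cells it had 10.5 ± 0.44 attached and 10.4 ± 0.83 CPM floating (-0.01 ± 0.12, adjusted p = 0.962), and the 2 suspension changes differed by 0.89 ± 0.19 (adjusted p = 0.0018). SDC4, a syndecan co-receptor, rose with suspension in control cells by 0.32 ± 0.09 (adjusted p = 0.00467). FZD5 fell with suspension in GFI1 cells by 0.55 ± 0.06 (adjusted p = 9.36e-08).

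Against 62.3% of all tested genes in attached and 60.4% in floating cells, 7 of the 10 tested effectors (70%) passed with GFI1 in attached cells, 2 higher and 5 lower, and 7 (70%) in floating cells, 3 higher and 4 lower. JUN, a target of JUN kinases, fell with suspension in control cells (-1.09 ± 0.15, adjusted p = 1.23e-06). Of 11 tested regulators and trafficking genes, 9 (81.8%) passed in attached cells, 1 higher and 8 lower, and 11 in floating cells, 2 higher and 9 lower, where 32.8% and 31.1% of all genes were lower. GIPC1, an adaptor that binds VANGL proteins, fell with GFI1 by 0.98 ± 0.06 attached and 0.96 ± 0.06 floating (adjusted p = 5.94e-14 and 1.78e-13). The kinase gene CSNK1E rose with suspension in GFI1 cells (0.32 ± 0.07, adjusted p = 0.000502). Of the 3 ciliary planar polarity effectors, 3 passed as higher with GFI1 in attached and 2 in floating cells, where 29.5% and 29.3% of all genes did, and so few genes say little of the class. WDPCP rose with suspension in control cells (0.37 ± 0.14, adjusted p = 0.0431) and INTU in GFI1 cells (0.28 ± 0.09, adjusted p = 0.0235). In the parallel Fat and Dachsous system, the giant cadherin FAT4 rose with GFI1 by 1.99 ± 0.10 and 1.96 ± 0.10 (adjusted p = 1.03e-15 and 1.86e-15). FJX1, a homologue of the Drosophila kinase that modifies Fat, fell in all 4 comparisons. With GFI1 it fell by 0.68 ± 0.06 attached and 1.24 ± 0.08 floating (adjusted p = 1.05e-09 and 1.74e-13). With suspension it fell by 0.59 ± 0.07 in control and 1.15 ± 0.07 in GFI1 cells (adjusted p = 4.86e-08 and 1.06e-11).

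**Figure D4:**
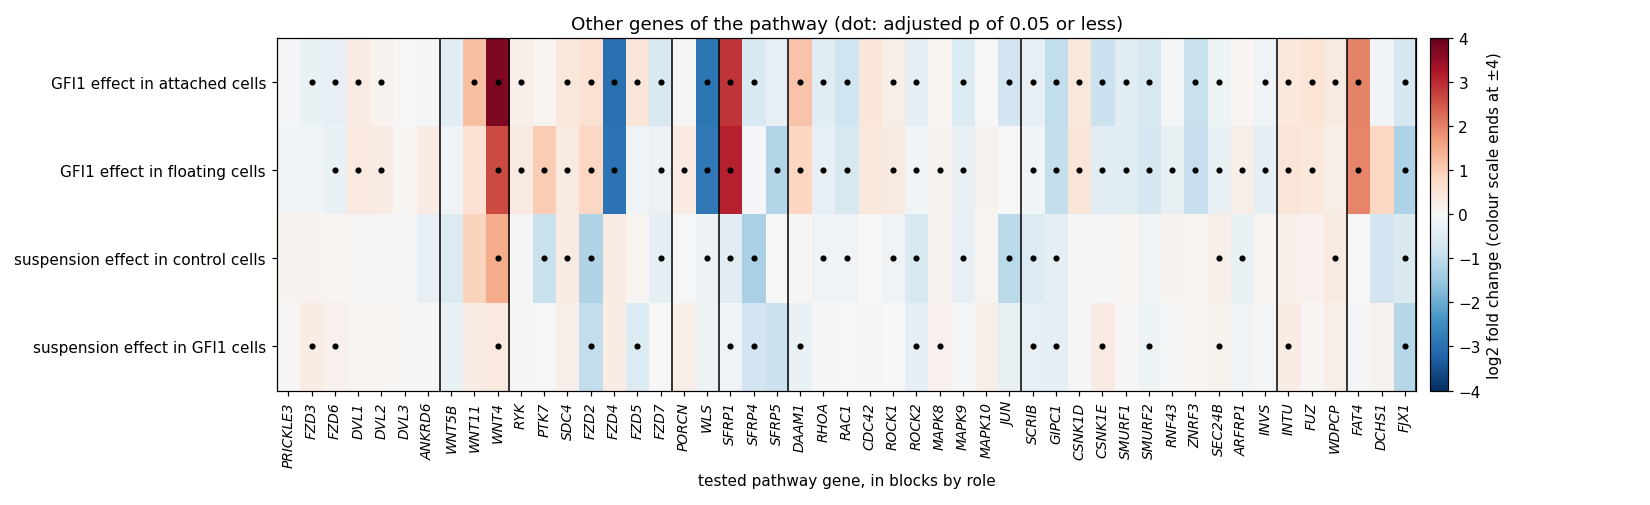
Log2 fold change (colour, scale ending at 4 in both directions) of the 49 tested genes of the wider pathway list in the 4 comparisons, in blocks by role from core genes at the left to Fat and Dachsous at the right, with a dot where the adjusted p was 0.05 or less. WNT4, SFRP1 and FAT4 are red and FZD4 and WLS blue in both GFI1 comparisons, and most suspension values are pale.

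The difference between the 2 suspension changes passed for 11 of the 49 genes, 8 positive and 3 negative, against 10.8% of all genes. WNT4 was the one with a size of at least 1 log2 unit.

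The other Wnt branch runs through beta-catenin, and WNT5A is known to restrain it in some cells. Of 11 target and feedback genes of that branch, 8 could be tested. With GFI1, 8 passed in attached cells, 3 higher and 5 lower, against 62.3% of all genes. In floating cells 7 passed, 3 higher and 4 lower, against 60.4%. AXIN2, the most widely used readout, fell from 35.4 ± 1.52 to 11.2 ± 0.11 CPM in attached and from 44.4 ± 1.64 to 13.3 ± 2.00 CPM in floating cells (-1.66 ± 0.08 and -1.74 ± 0.08, adjusted p = 3.68e-15 and 6.87e-16). BAMBI fell by 0.78 ± 0.07 and 1.36 ± 0.06 (adjusted p = 1.7e-10 and 1.06e-15). NKD2 fell in attached cells (-1.55 ± 0.16, adjusted p = 2.79e-09) and gave 0.12 ± 0.15 in floating cells (adjusted p = 0.502), whereas NKD1 fell in both, by 0.54 ± 0.11 and 1.10 ± 0.10 (adjusted p = 8.96e-05 and 3.91e-10). The secreted inhibitors DKK1 and NOTUM went the other way in both states. In attached cells they were higher by 0.76 ± 0.05 and 0.84 ± 0.36 (adjusted p = 2.48e-13 and 0.0429), with overlapping libraries for NOTUM. In floating cells they were higher by 0.62 ± 0.05 and 1.26 ± 0.33 (adjusted p = 1.71e-11 and 0.00144). The transcription factor gene TCF7 was higher by 0.57 ± 0.12 attached and 0.69 ± 0.13 floating (adjusted p = 0.000295 and 3.43e-05). With suspension, control cells had higher AXIN2 (0.32 ± 0.07), NKD1 (0.81 ± 0.10) and BAMBI (0.66 ± 0.06) and lower NKD2 (-0.56 ± 0.14), with adjusted p = 0.000661, 1.75e-07, 2.35e-09 and 0.00241. In GFI1 cells NKD2 rose by 1.11 ± 0.16, AXIN2 by 0.24 ± 0.09 and NOTUM by 0.78 ± 0.30 (adjusted p = 5.37e-06, 0.0454 and 0.0488). DKK1 fell there by 0.24 ± 0.05 (adjusted p = 0.000234).

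The 5 protein-coding genes whose log2 CPM followed PRICKLE1 most closely over the 12 libraries were USP31, MIEF1, CDH4, NXPH4 and SLC3A2, with Pearson r from 0.960 to 0.979. The libraries fall into 4 groups, so these values mostly describe a shared order of group means. CDH4, a cadherin gene, had 15.9 CPM in attached control, 4.91 in attached GFI1, 5.89 in floating control and 4.47 in floating GFI1 cells. SLC3A2, the heavy chain of amino acid transporters, had 571, 437, 425 and 414 CPM in the same order. For WNT5A the 5 genes were MAP2K2, YTHDC1, PCGF5, TMEM158 and FOXO1, with r from 0.980 to 0.987. TMEM158 had the widest range of these, at 5.74 CPM in attached control, 21.7 in attached GFI1, 7.14 in floating control and 56.4 in floating GFI1 cells.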

How the data were processed

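A549 cells in 4 groups of 3 libraries were profiled by RNA-seq of polyadenylated RNA. The deposited file holds read counts per gene, which the authors made without normalization. The study's methods name HISAT2 and featureCounts on GRCh38/hg38, whereas the submitters' processing notes name Bowtie2 and HTSeq with hg38. Annotation release and strand setting are not given in the sources used here. Gene positions are those of the file.

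Counts were fitted with edgeR 4.0.16 (R 4.3.3) as group means over 12 libraries, with TMM scaling, filterByExpr (minimum 10 counts, total 15), which left 17829 of 58735 genes, and the two-sided quasi-likelihood F test with Benjamini-Hochberg adjustment over all genes tested. The standard errors are Wald errors of that fit, and its biological coefficient of variation was 4.86%. Libraries held 17014188 to 20748677 counts, and the replicates of a group were not copies of one library. The step was tested on simulated counts. Alternatives were DESeq2 1.42.0, other scalings and filters, a fold limit, fits of 2 groups, a replicate block and leaving out each library.

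The members and all gene lists were chosen with earlier results of these data known. Genes named are the 10 members, the core genes of the pathway list, GFI1 and, from the pathway and beta-catenin lists, up to 3 highest and 3 lowest changes among genes that passed in each comparison and had mean log2 CPM of 1 or more, plus list genes whose 2 suspension changes differed by at least 1. PPHLN1, PRICKLE2-AS1, SFRP4, SFRP5, PORCN, WNT11 and WNT5B were named after their values were seen. Genes most alike are the 5 with the highest Pearson r.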

Additional observations from a re-analysis of the deposited data

Results flagged for a closer look

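For 10 of the named genes outside the 10 described here, the suspension change with GFI1 differed from that without it in the fit (edgeR, adjusted p for the difference at or under 0.05). It was positive for NKD2 (1.67), which fell in control cells and rose in GFI1 cells. It was also positive, with a lesser fall or a rise in GFI1 cells, for PTK7 (0.890), JUN (0.788), CSNK1E (0.392) and SFRP1 (0.268). It was negative for WNT4 (-1.10), FZD5 (-0.629), BAMBI (-0.583), NKD1 (-0.560) and FJX1 (-0.554). All are differences of log2 fold changes. These 10 genes were named for large changes in the comparisons that make up this difference, so their number is not independent of it. Over the whole lists, 11 of 49 tested pathway genes (22.4%) and 3 of 8 tested beta-catenin genes (37.5%) passed for the difference. Among all tested genes, 10.8% passed. Floating GFI1 libraries ranged widely in JUN, from 15.6 to 34.2 CPM. Whether the difference for each of these genes holds without single libraries was not tested.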

How the results depend on the processing

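Over the 8 tested members and the 4 pairwise comparisons, 408 of 443 recomputed values kept their direction and side of the threshold, and each lost call is given with its gene above. These recomputed values leave out the fold limit, treated below. Among them, PRICKLE2, ROR1, VANGL2 and CELSR3 kept their GFI1 calls in both states, and WNT5A its GFI1 calls, wherever there was a value (WNT5A is too low for at least 10 counts in every library). Values that changed sign were small and not called. CELSR2 with GFI1 in floating cells gave 0.0297 with upper quartile scaling, 0.11 with library size alone and 0.00125 with at least 10 counts in every library, and -0.063 to 0.0304 without single libraries. CELSR1 with suspension in GFI1 cells gave 0.0111 with upper quartile scaling, 0.00273 without a filter, 0.00136 with the stricter filter and -0.0566 to 0.0166 without single libraries. Without single libraries CELSR3 with suspension in GFI1 cells gave -0.0639 to 0.0175, and in control cells CELSR2 gave -0.0467 to 0.0915 and WNT5A -0.0443 to 0.259.

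Counts of members here and below leave out PRICKLE1, which was not tested. Asking also for a change of 2-fold or more left WNT5A, ROR1, VANGL2 and PRICKLE2 in both GFI1 comparisons, 4 and 4. With suspension it left 0 and 0 members in control and GFI1 cells. Of the pathway list it left 7, 8, 4 and 1 in the same order, and 1 for the difference of suspension changes. A count of members by that difference, though planned, is not given, since it chose them. Without single libraries the suspension counts in GFI1 cells were 1 to 2 for members and 11 to 17 for the list, both lowest without attached GFI1 replicate 1. Library size alone moved the median of all genes to 0.14 in both GFI1 comparisons and the share of higher among called genes from 47.4% to 61.5% attached and from 48.5% to 61.4% floating. With it, the 8 tested members kept their directions in those comparisons except CELSR2 in floating cells.

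Libraries with one number did not deviate together (r from -0.04 to 0.06), so no sign of pairing by number was seen. The labels do not say whether libraries with one number were handled together. With a replicate block the members' counts were 8, 7, 4 and 3 and the list's 36, 35, 19, 17 and 11. WNT5A, at 6 to 53 reads, had the largest SE of the 8 tested members except with suspension in GFI1 cells. There VANGL2 had 0.27 and WNT5A 0.25.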
